A study of Xenopus laevis with 30 samples.

Results

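ND1, ND5, ND6 and ATP6 are 4 of the protein-coding genes carried by mitochondrial DNA, and their transcripts were followed here in embryos of Xenopus laevis, the African clawed frog, after bisection. The 4 gene models were taken by identifier from the deposited tables, where their closest human proteins are ND1 (Xelaev18001106m), ND5 (Xelaev18003734m), ND6 (Xelaev18003735m) and ATP6 (Xelaev18004681m). They were 4 of 16673 genes listed at stage 10.5 and 4 of 15596 at stage 12, and all 4 passed the filter on low values at both stages. No model with the name of another mitochondrially encoded protein gene was matched in either table, and those genes were not analysed here.

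The series concerns the regeneration of twin embryos from half-embryos of the Nasco strain. At each of 2 Nieuwkoop-Faber stages, 10.5 (early gastrula) and 12 (late gastrula), 5 groups of 3 poly(A) RNA libraries were sequenced: undivided whole embryos, which served as controls, and half-embryos of 4 kinds (left, right, dorsal, ventral), 30 libraries in all. The protocols in the labels place the cut at stage 8, with 1x Barth's solution as the medium, and give 0.3x Barth's solution for the later culture of half-embryos and 0.1x Marc's Modified Ringer (MMR) for embryos. On this reading, bisection and medium cannot be told apart in a comparison of half-embryos with whole embryos. The labels do not say whether the replicates came from separate clutches, so the p-values below measure the spread between these libraries, which may be partly technical.

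Mitochondrial DNA encodes a small set of proteins, all of them subunits of the respiratory chain and of the ATP synthase, and the remaining subunits are encoded in the nucleus and imported. ND1, ND5 and ND6 are membrane-arm subunits of complex I, the NADH dehydrogenase that passes electrons to ubiquinone and pumps protons. ATP6 is the subunit a of complex V, the ATP synthase, and forms part of its proton channel. Both strands of mitochondrial DNA are transcribed into long precursors that are cut into single RNAs, and ND6 is the member read from the opposite strand to ND1, ND5 and ATP6. The frog egg carries a large maternal store of mitochondria, part of which lies in the germ plasm, the cytoplasm inherited by future germ cells.

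The models were among the most abundant in the tables. Levels are given as RPKM, reads scaled by the length of the model and the depth of the library, which allows levels to be set side by side per length. By mean RPKM over 15 libraries at stage 10.5, ND1 ranked 2, ND5 13, ATP6 18 and ND6 36 of 16673 genes. At stage 12 the ranks were 6, 42, 114 and 47 of 15596. The model lengths implied by the values were 1115 bases for ND1, 3858 for ND5, 246 for ND6 and 363 for ATP6. The values describe these models, which may cover more or less than the gene each is named for. The ND5 model, the longest, may hold sequence beyond ND5, and what else it holds was not settled. The least sampled value rested on 67 reads, for ATP6 at stage 12, and the median number of reads behind a value lay between 505 (ATP6, stage 12) and 24616 (ND5, stage 10.5). In the RefSeq gene order of the v10.1 assembly ND6 lies between ND5 and CYTB on the mitochondrial genome. The library kit keeps no strand, so reads of ND6 cannot be told apart from antisense RNA or from the ends of transcripts of its neighbours.

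Library totals recovered from the values were 3567902 to 3783017 reads for whole embryos and 3855128 to 5863177 for half-embryos at stage 10.5, and 2116679 to 2954286 against 2549735 to 5130915 at stage 12. The sides of the half-embryos were checked with 11 dorsal and 6 ventral marker models, among them the organizer genes chordin and goosecoid and the ventral gene sizzled. All 11 were higher and all 6 lower in dorsal than in ventral half-embryos at both stages by limma. Left library 2 of stage 12 stood apart from its group, with a summed dorsal marker level of 98.6 RPKM against 692 and 698 RPKM in the other left libraries, and a summed ventral marker level of 703 RPKM against 248 and 185. The tests of left half-embryos at stage 12, the list counts in left and right half-embryos, the correlations among half-embryos and the ratios of ND5 and ATP6 to ND1 are also given without it.

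In whole embryos at stage 10.5, ND1 was measured at 1779.95, 1226 and 2243 RPKM in libraries 1, 2 and 3. In the same order, left half-embryos gave 3022, 2277 and 3694 RPKM and right half-embryos 3007, 2325 and 3569. Dorsal half-embryos gave 3285, 2055 and 3716 RPKM and ventral half-embryos 3109, 2108 and 3329. Library 2 was the lowest and library 3 the highest in each of the 5 groups, and 2 of 12 half-embryo libraries, both numbered 2, lay below the highest whole-embryo library.

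ND5 gave 696, 492 and 1117 RPKM in the whole embryos of stage 10.5. It gave 1426, 1154 and 2006 RPKM in left and 1442, 1141 and 1898 in right half-embryos. Dorsal half-embryos stood at 1588, 1062 and 2078 RPKM and ventral half-embryos at 1514, 1049 and 1842. Here too 2 of 12 half-embryo libraries lay below the highest whole-embryo library, and the means of the 4 half-embryo groups lay between 1469 and 1576 RPKM, against 768 ± 319 (SD, n = 3) in whole embryos.

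ND6 was measured at 458, 354 and 731 RPKM in whole embryos of stage 10.5. The left libraries held 859, 704 and 1323 RPKM and the right libraries 897, 704 and 1310.1. The dorsal libraries held 1071, 819 and 1366 RPKM and the ventral libraries 975, 798 and 1188. Of 12 half-embryo libraries, 2 lay below the highest whole-embryo library.

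ATP6 showed the same arrangement of libraries at stage 10.5, with 739.7, 531 and 899 RPKM in whole embryos. Left half-embryos gave 1548, 1102 and 1927 RPKM and right half-embryos 1585, 1049 and 1626. Dorsal half-embryos gave 1544, 879.6 and 1785 RPKM and ventral half-embryos 1474, 955 and 1563. One half-embryo library, dorsal library 2, lay below the highest whole-embryo library.

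**Figure D1:**
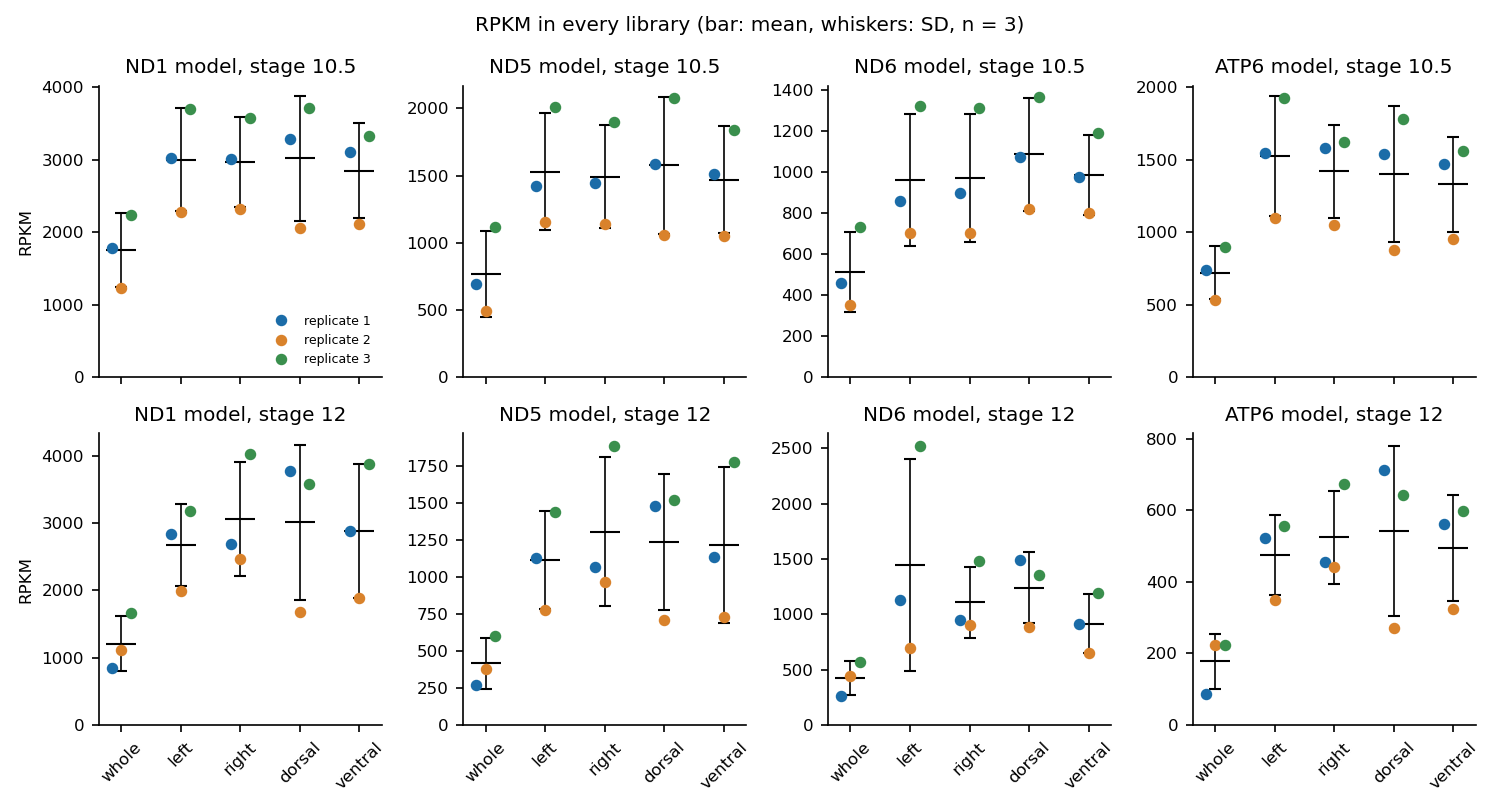
RPKM (vertical axes, linear, starting at 0) of ND1, ND5, ND6 and ATP6 in every library by group, stage 10.5 above and stage 12 below. Points are libraries coloured by replicate number, and bars are means with SD (n = 3). Whole embryos have the lowest mean in all 8 panels, and left library 3 of stage 12 stands at 2520 RPKM for ND6.

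At stage 12, ND1 was measured at 851, 1116 and 1656 RPKM in whole embryos. It stood at 2830.5, 1993 and 3179 RPKM in left and at 2683, 2468 and 4032 in right half-embryos. Dorsal half-embryos gave 3769, 1681 and 3577 RPKM and ventral half-embryos 2874, 1889 and 3876. Every half-embryo library was above every whole-embryo library, although dorsal library 2, the lowest half-embryo, was close to whole-embryo library 3, the highest whole embryo. The same arrangement was found for 1.95% of all genes tested at stage 12.

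ND5 gave 271, 375 and 604 RPKM in whole embryos of stage 12. It gave 1133, 775 and 1440.4 RPKM in left and 1068, 967 and 1889.6 in right half-embryos. Dorsal half-embryos held 1482, 709 and 1524 RPKM and ventral half-embryos 1137, 733 and 1777. Every half-embryo library was above every whole-embryo library, as for 1.95% of all genes tested.

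ND6 gave 263, 445 and 567 RPKM in whole embryos of stage 12. In left half-embryos it gave 1124, 691 and 2520.2 RPKM, and in right half-embryos 948, 899 and 1476. Dorsal half-embryos gave 1488, 881 and 1354 RPKM and ventral half-embryos 912, 647 and 1188. The value of left library 3 was far above those of the 11 other half-embryo libraries, which ran from 647 to 1488 RPKM. In that library ND6 stood at 0.793 times ND1, against 0.306 to 0.524 times in the other half-embryos.

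ATP6 was lower at stage 12 than the other members, with 87.2, 222 and 222 RPKM in whole embryos. Left half-embryos held 522, 348 and 555 RPKM and right half-embryos 456, 442 and 674. Dorsal half-embryos held 713, 269 and 642 RPKM and ventral half-embryos 562, 324 and 597. Whole-embryo library 1 was the lowest of all 15 libraries, and every half-embryo library was above every whole-embryo library, as for 1.95% of all genes tested.

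Each label of a whole-embryo library names the half-embryos of the same number as the ones it serves, and libraries of the same number deviated together from their group means. Against the whole-embryo library of their number, all 12 of 12 half-embryo libraries were higher for each of the 4 members at both stages, as they were for 6.86% of all genes tested at stage 10.5 and 6.13% at stage 12. At stage 10.5 the median ratio to the whole embryo was 1.69 for ND1 (range 1.48 to 1.90), 2.10 for ND5 (1.65 to 2.35), 1.97 for ND6 (1.63 to 2.34) and 1.99 for ATP6 (1.66 to 2.14). At stage 12 it was 2.28 for ND1 (1.51 to 4.43), 2.76 for ND5 (1.89 to 5.48), 2.50 for ND6 (1.46 to 5.65) and 2.79 for ATP6 (1.21 to 8.17). These 12 ratios share 3 whole-embryo libraries and are not independent. At stage 12 the ratios differed by number, lying between 3.15 and 8.17 for number 1, between 1.21 and 2.58 for number 2 and between 1.92 and 4.45 for number 3, whereas at stage 10.5 all lay between 1.48 and 2.35.

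**Figure D2:**
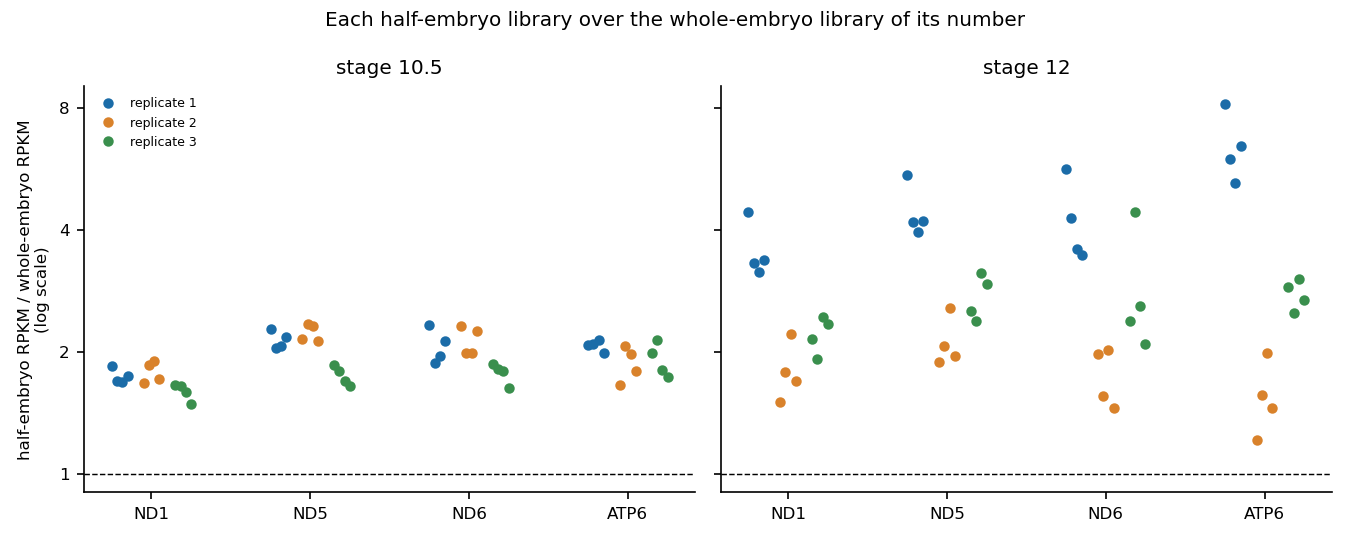
Ratio of each half-embryo library to the whole-embryo library of its number (vertical axis, log scale) for the 4 members at stages 10.5 and 12, coloured by replicate number. The dashed line marks equal levels, and all points lie above it, from 1.48 to 2.35 at stage 10.5 and from 1.21 to 8.17 at stage 12.

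The comparison of left and right half-embryos, the products of a cut along the midline, with whole embryos asked how the level in future twins differed from that of the undivided embryo. At stage 10.5 the log2 difference of RPKM + 1 was 0.79 ± 0.24 (SE) for ND1, 1.02 ± 0.29 for ND5, 0.93 ± 0.27 for ND6 and 1.03 ± 0.26 for ATP6. The limma adjusted p-values, over all genes tested and without regard to replicate number, were 0.0896, 0.0703, 0.0769 and 0.0548, so 0 of 4 members were called at the threshold of 0.05, where 2.71% of all genes were called and 0.876% called higher in half-embryos. A fit that took the number as a block gave the same differences limma adjusted p = 2.23e-05 for ND1, 2.23e-05 for ND5, 3.15e-05 for ND6 and 1.06e-05 for ATP6, and all 4 of 4 rose. In that fit 22% of all genes were called, and 7.41% were called higher in half-embryos. Of 16672 genes, 261 had a log2 difference at or above that of ND1, the lowest of the members, which is 1.57% of genes.

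At stage 12 the log2 differences of left and right half-embryos from whole embryos were 1.27 ± 0.30 (SE) for ND1, 1.56 ± 0.35 for ND5, 1.52 ± 0.36 for ND6 and 1.58 ± 0.36 for ATP6. ND5 and ATP6 rose, at limma adjusted p = 0.0460 and 0.0469, while ND1 and ND6 stood at 0.0563 and 0.0556, so 2 of 4 were called, where 1.38% of all genes were called and 0.731% were called higher. The block called 4 of 4, with limma adjusted p = 0.00268 for ND1, 0.00140 for ND5, 0.00432 for ND6 and 0.0106 for ATP6, where 8.48% of all genes were called and 4.1% called higher. The adjusted p-values without the block lay close to the threshold, and calls changed with single libraries while the differences stayed positive, from 1.29 to 1.86 for ND5 and from 1.13 to 1.81 for ATP6 over 20 other settings. Without left library 2, which stood apart by its markers, the log2 differences were 1.36 ± 0.31 (SE) for ND1, 1.68 ± 0.36 for ND5, 1.73 ± 0.32 for ND6 and 1.69 ± 0.37 for ATP6, and ND6 alone was called (limma adjusted p = 0.0357, against 0.0570 to 0.0622 for the others), where 0.584% of all genes were called. With the block and without that library 4 of 4 rose, by 1.26 to 1.67 (limma adjusted p from 0.00264 to 0.0181), where 6.83% of all genes were called. Without whole-embryo library 2, 1 member was called. Without any one of whole-embryo libraries 1 and 3, left libraries 1 and 3 and the 3 right libraries, 0 were called. Without left library 3 the log2 difference of ND6 was 1.27 and its limma adjusted p 0.0832. Of 15594 genes, 72 (0.462%) had a log2 difference at or above that of ND1.

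Dorsal half-embryos at stage 10.5 differed from whole embryos by log2 values of 0.79 ± 0.28 (SE) for ND1, 1.06 ± 0.33 for ND5, 1.11 ± 0.31 for ND6 and 0.93 ± 0.30 for ATP6, with limma adjusted p from 0.0594 to 0.118 and 0 of 4 called, where 4.23% of all genes were called and 1.01% called higher. With the block all 4 rose, at limma adjusted p between 4.72e-05 and 0.000105, where 25.3% of all genes were called and 7.71% called higher. Ventral half-embryos differed by 0.72 ± 0.28 for ND1, 0.98 ± 0.33 for ND5, 0.99 ± 0.31 for ND6 and 0.88 ± 0.30 for ATP6. None of the 4 was called by limma without the block (adjusted p from 0.120 to 0.198), where 2.06% of all genes were called and 0.654% called higher, and each member's unadjusted p lay between 0.00692 and 0.0224. With the block 4 of 4 rose (limma adjusted p from 5.35e-05 to 9.73e-05), where 17.4% of all genes were called and 5.94% called higher.

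At stage 12 dorsal half-embryos stood above whole embryos by log2 values of 1.28 ± 0.35 (SE) for ND1, 1.57 ± 0.40 for ND5, 1.58 ± 0.41 for ND6 and 1.61 ± 0.41 for ATP6. The call was 0 of 4 without the block (limma adjusted p from 0.0832 to 0.0971), where 0.814% of all genes were called and 0.378% called higher, and 4 of 4 with it (0.00318 to 0.0220), where 6.68% were called and 3.17% called higher. For ventral half-embryos the values were 1.25 ± 0.35 for ND1, 1.53 ± 0.40 for ND5, 1.13 ± 0.41 for ND6 and 1.55 ± 0.41 for ATP6. Again 0 of 4 were called without the block (limma adjusted p from 0.0511 to 0.161), where 3.95% of all genes were called and 1.44% called higher, and 4 of 4 with it (0.00167 to 0.0242), where 11.1% were called and 4.82% called higher. The 3 comparisons with whole embryos at a stage share the same 3 control libraries and are not independent of each other. A lower share of a cell type and less RNA per cell cannot be told apart in bulk libraries, and whole-embryo libraries were also shallower than every half-embryo library at stage 10.5. The part of depth in the result was not tested.

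**Figure D3:**
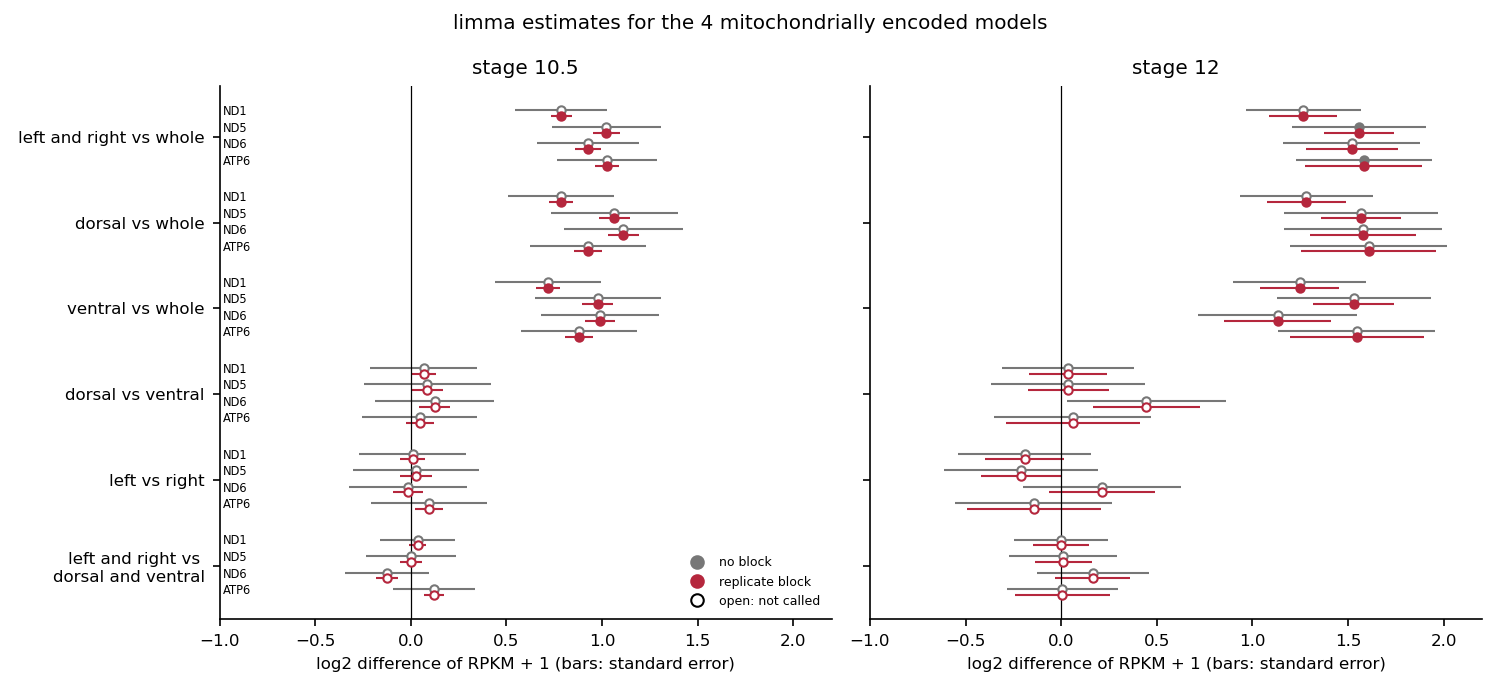
limma log2 differences of RPKM + 1 (horizontal axis, bars are standard errors) for the 4 members in 6 comparisons at stages 10.5 and 12, without a block (grey) and with the replicate block (red). Filled points are called at an adjusted p of 0.05 or less. The estimates with whole embryos lie between 0.72 and 1.61, and those among half-embryos between -0.21 and 0.45.

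Among half-embryos the members were not called in any comparison. Dorsal with ventral, left with right, and left and right with dorsal and ventral gave log2 differences from -0.12 to 0.12 at stage 10.5, with standard errors of 0.20 to 0.33, and from -0.21 to 0.45 at stage 12, with standard errors of 0.25 to 0.41. Of all genes, 0.99% were called between dorsal and ventral, 0% between left and right and 0.024% in the last comparison at stage 10.5. At stage 12 the shares were 3.76%, 0% and 0.0128%. With the block 0 of 4 members were called in each, the standard errors were 0.05 to 0.08 at stage 10.5 and 0.15 to 0.35 at stage 12, and the shares of all genes called were 2.17%, 0% and 0.078% at stage 10.5 and 5.76%, 0% and 0.0128% at stage 12. The value of 0.45 was that of ND6 in dorsal over ventral half-embryos at stage 12, and a difference of that size was within 2 standard errors of 0. Without left library 2 of stage 12 the comparisons with left half-embryos gave 0.01 to 0.64, with standard errors of 0.26 to 0.46, and with the block -0.20 to 0.51, with standard errors of 0.16 to 0.41. ND6 in left over right half-embryos was the highest in both, and 0 of 4 members were called in each. limma called 0 of all genes between left and right half-embryos, with 107 genes at an unadjusted p under 0.05 at stage 10.5 and 219 at stage 12. With the block the numbers were 330 and 611. All are under 5% of the genes tested, the share expected with no difference.

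The differences from whole embryos did not pass the test of a change between stages. In 1 fit of all 30 libraries the differences from whole embryos were larger at stage 12 by log2 values of 0.14 to 0.68, with limma adjusted p of 0.965 or more without the block and 0.280 or more with it, and 0 of 4 members were called. Without the block 0% of 14947 genes were called for dorsal and for left and right half-embryos and 0.0602% for ventral ones. With it the shares were 0.542% for dorsal, 0.522% for ventral and 0.0669% for left and right half-embryos. The change between stages of dorsal against ventral half-embryos ran from -0.05 to 0.32 on the log2 scale, again with 0 of 4 called, where 0% of all genes were called without the block and 0.0268% with it.

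The members moved together across libraries. Over all 15 libraries the correlation of log2 levels between pairs of members ran from 0.925 to 0.986 at stage 10.5 and from 0.896 to 0.995 at stage 12. Over the 12 half-embryo libraries alone it ran from 0.814 to 0.978 and from 0.703 to 0.985, the last being 0.657 to 0.983 without left library 2 of stage 12. These are descriptions across libraries that share depth, replicate number and group.

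Ratios between members within a library do not depend on library scaling. ND5 over ND1 was 0.391, 0.401 and 0.498 in whole embryos at stage 10.5, from lowest to highest, and 0.472 to 0.559 in half-embryos, with a median of 0.502. The log2 difference was 0.25, with exact permutation p = 0.0154 over 455 arrangements of the libraries, adjusted to 0.0615 over 12 ratios. An exact permutation within replicate numbers gave p = 0.008, the smallest that 125 arrangements allow, adjusted to 0.032. At stage 12 whole embryos ran from 0.318 to 0.365 and half-embryos from 0.388 to 0.469, with no overlap, and the log2 difference of 0.29 had exact permutation p = 0.0022, adjusted to 0.0264. Without left library 2 it was 0.30, with exact permutation p = 0.00275. The ND5 model was thus higher relative to the ND1 model in half-embryos than in whole embryos at stage 12 by either test. At stage 10.5 it was so by the test within numbers. Whether reads of ND5 itself carried this was not tested. How often ratios between other genes separated half-embryos from whole embryos was not counted.

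ATP6 over ND1 at stage 10.5 ran from 0.401 to 0.433 in whole embryos and from 0.428 to 0.527 in half-embryos. Its log2 difference was 0.19 (exact permutation p = 0.00659, adjusted to 0.0396, and 0.048 within numbers). At stage 12 the difference was 0.32 and did not pass, at exact permutation p = 0.0374, adjusted to 0.112, and the difference was 0.10 without whole-embryo library 1 and 0.32 without left library 2. ND6 over ND1 was higher by 0.22 in half-embryos at stage 10.5 (exact permutation p = 0.0593, adjusted to 0.142, and 0.032 within numbers) and by 0.17 at stage 12 (exact permutation p = 0.448). The 0.17 includes left library 3, where ND6 stood at 0.793 times ND1. The 3 ratios that do not involve ND1 had exact permutation p of 0.578 or more at both stages. Those over ND1 share its values and are not independent of each other.

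**Figure D4:**
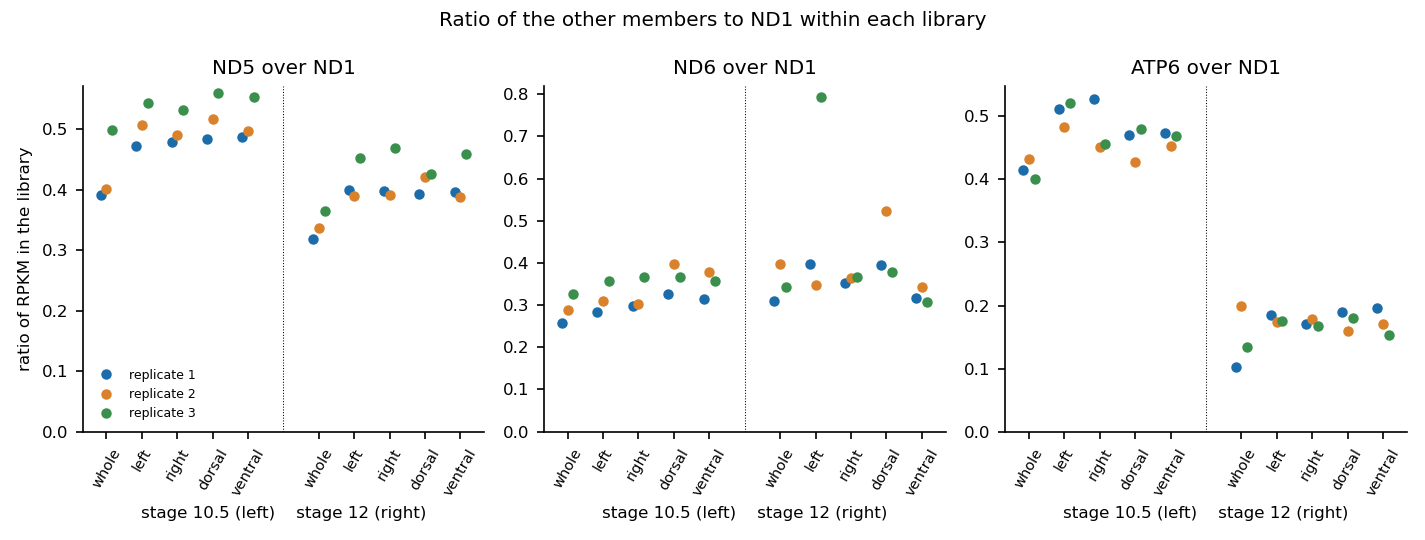
Ratio of RPKM of ND5, ND6 and ATP6 to ND1 within each library (vertical axes, linear, starting at 0), by group, with stage 10.5 left of the dotted line and stage 12 right of it. Points are libraries coloured by replicate number. ATP6 over ND1 lies at 0.401 to 0.527 at stage 10.5 and at 0.102 to 0.199 at stage 12.

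The proportions of the members differed between the libraries of the stages, most for ATP6. ATP6 over ND1 had a median of 0.470 over 15 libraries at stage 10.5 and 0.174 at stage 12, with no overlap, a log2 difference of -1.47. ATP6 over ND5 moved from a median of 0.955 to 0.427 (-1.17) and ATP6 over ND6 from 1.46 to 0.479 (-1.70), also without overlap. ND5 over ND1 went from 0.498 to 0.396 (-0.30) and ND6 over ND5 from 0.657 to 0.930 (0.54). These 5 had permutation p = 1e-05 within groups, the smallest that 100000 resamples can give, adjusted to 1.2e-05. ND6 over ND1 went from 0.326 to 0.364 (0.23, permutation p = 0.00944). The stage 12 ratios with ND6 include left library 3, where ND6 stood at 0.793 times ND1. The resampling treated all libraries of a stage as independent, although libraries of the same number deviated together. These p-values are therefore too small as a measure of the spread between replicate numbers. How often ratios between other genes also lay apart at the stages was not counted. Each stage was a separate set of libraries, so stage cannot be told apart from a difference in library preparation. The tables of the stages were normalized separately, so the levels themselves were not tested across them. Side by side, the mean of half-embryos at stage 12 was 0.982 of that at stage 10.5 for ND1, 0.804 for ND5, 1.18 for ND6 and 0.358 for ATP6, and that of whole embryos 0.690, 0.542, 0.826 and 0.245.

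Most subunits of the respiratory chain and ATP synthase are encoded in the nucleus, and 116 such models were measured at each stage. In left and right half-embryos of stage 10.5 the fit without the block called 4 of 116, all higher, where 0.876% of all genes were called higher, and with it 28 rose and 1 fell, where 7.41% of all genes were called higher. The 4 and the 28 both include ndufa11.L, which passed the filter only through half-embryo libraries. The median log2 difference of the 116 from whole embryos was 0.29, beside a median of all genes between -0.09 and -0.02 over the comparisons with whole embryos, and 93 of 116 were positive. At stage 12, 0 rose and 0 fell by limma without the block, 16 rose and 1 fell with it, and the median was 0.25 with 88 of 116 positive. Of all genes, 0.731% were called higher there without the block and 4.1% with it. Without left library 2 the median was 0.24, and 0 rose without the block and 7 with it, where 3.24% of all genes were called higher. The lowest member lay at 0.79 at stage 10.5, where 5 of 116 nuclear-encoded subunits, ndufa11.L among them, reached it. At stage 12 it lay at 1.27, where 0 of 116 did.

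The nuclear-encoded subunits called most clearly at stage 10.5 were cox7a2.1, a subunit of complex IV, at 18.5 ± 0.987 RPKM (SD, n = 3) in whole embryos and a median of 30.7 in half-embryos (log2 difference of left and right 0.70 ± 0.12 SE, limma adjusted p = 0.0157), and ndufa10.L, an accessory subunit of complex I (5.72 ± 0.887 RPKM and a median of 11.5, 0.83 ± 0.15, limma adjusted p = 0.0178). ndufa11.L, also of complex I, and the COX5B model (Xelaev18020302m) of complex IV were called as well, at 0.79 and 0.82. ndufa11.L stood at 0.956 ± 0.029 RPKM (SD, n = 3) in whole embryos, below the filter's minimum of 1, and at a median of 2.52 in half-embryos. It passed the filter only through half-embryo libraries, so its call is no support for a rise of the list. It is also among the 6 dorsal and 5 ventral calls without the block at stage 10.5 given below. With the block, the ATP synthase subunits atp5o.L (0.72) and atp5b.S (0.40) were among those with the smallest p. At stage 12 only atp5d.L of the ATP synthase was called without the block, in ventral half-embryos (1.02 ± 0.26, limma adjusted p = 0.0429), while atp5f1.L, atp5b.S, ndufa10.L and ndufs5.L led the 16 that rose with the block in left and right half-embryos. In dorsal half-embryos 6 of 116 rose at stage 10.5 (25 with the block), where 1.01% of all genes were called higher (7.71% with it), and 0 at stage 12 (9 with it), where 0.378% were (3.17% with it). In ventral half-embryos 5 rose at stage 10.5 (24 with the block), where 0.654% of all genes were called higher (5.94% with it), and 1 at stage 12 (15 with it), where 1.44% were (4.82% with it).

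By complex, 7 of 49 subunits of complex I, 1 of 5 of complex II, 1 of 10 of complex III, 9 of 23 of complex IV and 10 of 29 of complex V rose with the block in left and right half-embryos at stage 10.5, where 7.41% of all genes were called higher. The 7 of complex I include ndufa11.L, which passed the filter only through half-embryo libraries. At stage 12 the counts were 4 of 48, 1 of 5, 3 of 10, 4 of 23 and 4 of 30, where 4.1% of all genes were, and without left library 2 they were 3, 0, 0, 2 and 2. The complexes were not tested against each other or against the other genes. None of the 116 was called among half-embryos without the block. Summed over all 116, the level in whole embryos was 3001 to 3281 RPKM at stage 10.5 and that in half-embryos 3318 to 4144. The 4 members together stood at 2602 to 4989 RPKM in whole and 4815 to 8950.4 in half-embryos. The ratio of these sums was 0.867, 1.12 and 1.63 in whole embryos and 1.41 to 2.29 in half-embryos at stage 10.5. At stage 12 it was 0.466, 0.631 and 0.884 in whole embryos and 0.927 to 2.11 in half-embryos, with no overlap. Each of the 4 members already had no overlap at that stage, as for 1.95% of all genes tested. The separation of the ratio is therefore not an independent result.

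**Figure D5:**
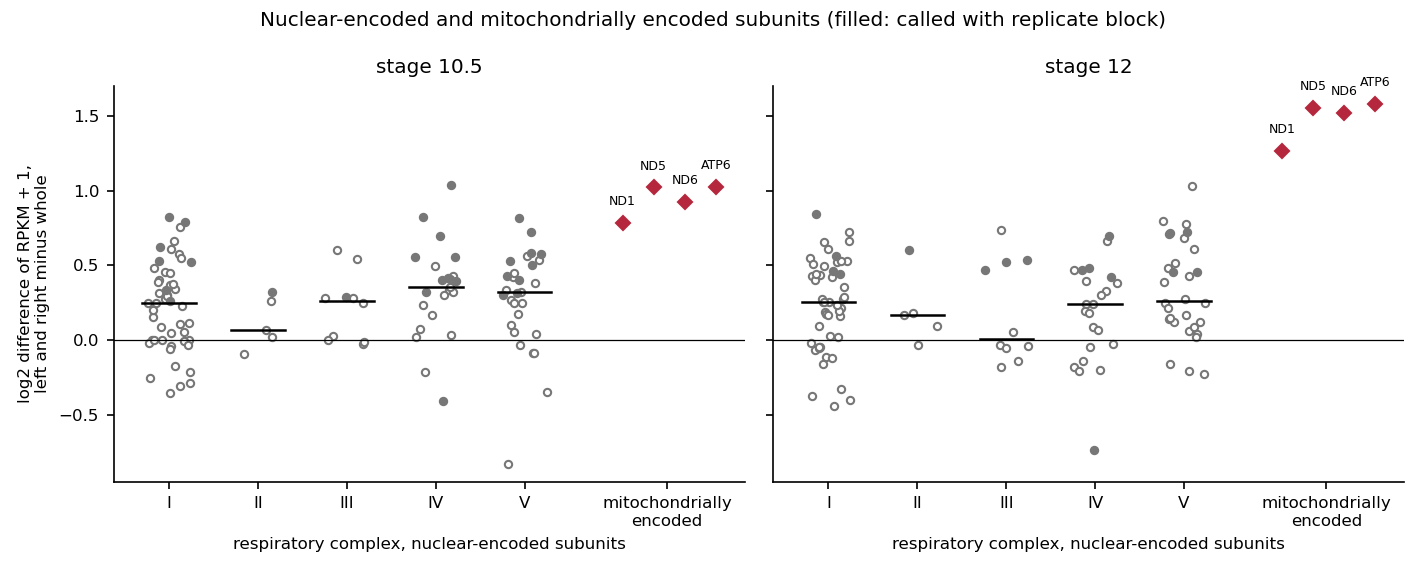
limma log2 differences of RPKM + 1 between left and right half-embryos and whole embryos (vertical axis) for nuclear-encoded subunits of complexes I to V and for the 4 mitochondrially encoded members (diamonds) at stages 10.5 and 12. Circles are genes, filled where called with the replicate block, and bars are medians. The members lie at 0.79 to 1.03 at stage 10.5 and 1.27 to 1.58 at stage 12, beside medians of all subunits of 0.29 and 0.25.

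Of 25 genes of mitochondrial DNA and RNA upkeep measured at stage 10.5, 0 rose and 1 fell in left and right half-embryos, where 146 of all genes rose and 306 fell (2.71% called). With the block 1 rose and 4 fell, where 1236 of all genes rose and 2430 fell (22% called). The median log2 difference of the 25 was 0.0024. fastkd3.L, a member of a family of mitochondrial RNA-binding proteins, fell by 0.71 (limma adjusted p = 0.0451), from 12.7 RPKM in whole embryos to a median of 7.46 in half-embryos. polg.L, the mitochondrial DNA polymerase, fell by 0.86 in dorsal half-embryos (limma adjusted p = 0.0420). In dorsal half-embryos 0 of 25 rose and 2 fell, where 169 of all genes rose and 536 fell (4.23% called). With the block 1 rose and 5 fell there, where 1286 of all genes rose and 2933 fell (25.3% called). Of 24 at stage 12, 0 rose and 1 fell in left and right half-embryos, with a median of 0.05. The 1 that fell was mterfd1-like.S, a model of the mitochondrial termination factor family (-0.86, limma adjusted p = 0.0452). Of all genes, 114 rose and 101 fell there (1.38% called). With the block 0 rose and 2 fell, where 640 of all genes rose and 683 fell. Without left library 2 of stage 12, 0 were called by limma without the block, where 0.584% of all genes were called. With it 0 rose and 1 fell, where 6.83% of all genes were called.

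Genes of other mitochondrial proteins numbered 26 at stage 10.5. Their transcript levels do not measure mitochondrial content, which was not measured. In left and right half-embryos 1 rose and 0 fell, tomm70a.S, a receptor of the import pore in the outer membrane (0.65 ± 0.13 SE, limma adjusted p = 0.0237), and with the block 11 rose and 2 fell. Of all genes, 0.876% were called higher there without the block (2.71% in either direction) and 7.41% with it (22% in either direction). The citrate synthase gene cs.L was among those that rose with the block (0.28). At stage 12, 0 of 24 were called by limma without the block and 4 rose with it, including the mitochondrial chaperone gene hspa9.S (0.47) and the channel gene vdac3.L (0.49). Of all genes, 0.731% were called higher at that stage without the block and 4.1% with it. When left library 2 of stage 12 was left out, 2 rose with the block, where 3.24% of all genes were called higher, and 0 were called by limma without the block. The medians were 0.19 and 0.23.

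Germ plasm transcripts were measured because the germ plasm is rich in mitochondria. All 7 models of the list were above 0 in every library, with summed levels at stage 10.5 of 141 to 216 RPKM in whole embryos and 87.7 to 246 in half-embryos, and at stage 12 of 67.9 to 115 and 48.4 to 108. In left and right half-embryos 0 of 7 were positive at either stage, with medians of -0.53 and -0.36. In dorsal half-embryos 0 of 7 were positive at stage 10.5 and 3 of 7 at stage 12 (median -0.05). velo1.L fell in dorsal half-embryos at stage 10.5 (-0.93 ± 0.24 SE, limma adjusted p = 0.0453), where 4.23% of all genes were called. With the block 2 of 7 fell there, where 25.3% of all genes were called. In ventral half-embryos 1 of 7 was positive at stage 10.5 and 0 of 7 at stage 12. rtn3.S fell in ventral half-embryos at stage 12 (-1.24 ± 0.22 SE, limma adjusted p = 0.00733), where 3.95% of all genes were called. With the block 2 of 7 fell there, where 11.1% of all genes were called. Against ventral half-embryos, 3 of 7 were higher in dorsal ones at stage 10.5 and 7 of 7 at stage 12. At stage 12 rtn3.S was called higher in dorsal ones (0.93 ± 0.22 SE, limma adjusted p = 0.0284), where 3.76% of all genes were called. With the block 2 of 7 were called higher in dorsal ones, where 5.76% of all genes were called. rtn3.S fell in left and right half-embryos at stage 12 (-0.88 ± 0.19 SE, limma adjusted p = 0.0436), where 1.38% of all genes were called. In left and right half-embryos with the block, 0 of 7 were called at stage 10.5. At stage 12 rtn3.S and ddx25.L fell in them with the block (-1.40 ± 0.33 SE for ddx25.L, limma adjusted p = 0.0261). Of all genes, 22% were called with the block at stage 10.5 and 8.48% at stage 12. With left library 2 left out, 0 were called at stage 12 by limma without the block and 2 fell with it, where 0.584% and 6.83% of all genes were called. For 8 endoderm models 0 were called by limma in left and right half-embryos at either stage without the block. With the block 0 were called at stage 10.5, and 0 rose and 2 fell at stage 12 (1 without left library 2). Their summed levels overlapped between whole embryos (424 to 776 RPKM at stage 10.5) and half-embryos (447 to 821). Epidermal models showed 0 calls of 6 at stage 10.5 and 0 of 7 at stage 12 in left and right half-embryos, by limma without and with the block, with whole embryos at 168 to 283 RPKM and half-embryos at 76.3 to 478 at stage 10.5. The part of any of these cell types in the members' levels was not tested.

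The 6 genes whose levels were most like the members' mean were ranked among 5862 genes by the mean over both stages of the correlation across 15 libraries. First was Xelaev18001105m (mean r = 0.989), which has no human symbol in the tables and whose identifier is next to that of the ND1 model. Its level was 1242, 903 and 1846 RPKM in whole embryos at stage 10.5 and 1823 to 3603 in half-embryos, and 478, 721 and 1225 against 1329 to 3796 at stage 12. The other 5 were the TRA2A model Xelaev18030927m (0.914), a splicing factor, odc1.L (0.911), the ornithine decarboxylase of polyamine synthesis, pygl.L (0.907), a glycogen phosphorylase, hmgn2.L (0.901), a nucleosome-binding protein, and atp5b.S (0.896), the catalytic beta subunit of the ATP synthase. Over all ranked genes the median was 0.023 and the 99th percentile 0.777. The correlations span whole and half-embryos and are a description with no test.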

How the data were processed

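RPKM values for gene models of the JGI9.1 annotation were deposited by the authors in a table for each stage, per the file headers. TopHat2 2.09 and DESeq, without a version, appear in the submitters' processing notes, and no source used here gives the counting tool. Because each value is a whole number of steps (relative tolerance 3e-09), the table gave back reads, library totals and model lengths. The members and gene lists were chosen with earlier results of these data known. limma 3.58.1 (R 4.3.3, trend option) was fitted to log2(RPKM + 1) of genes reaching an RPKM of 1 in 3 or more libraries, over all 15 libraries of a stage, with two-sided tests and Benjamini-Hochberg adjustment over all genes. Log2 differences of RPKM + 1 understate the change of low genes.

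Replicate numbers paired the libraries: each control's label names the half-embryos it serves. Deviations of same-numbered libraries from their group means had correlations of 0.414 or more at stage 10.5 and 0.274 or more at stage 12 over 30 pairs each, against -0.157 or less and -0.0832 or less between other numbers. Centring on the group means pushes the correlations between other numbers below 0 where same-numbered ones are positive, so their negative sign adds no evidence of pairing. The fit without the block came first by plan, and the block is given beside it for the members and for the counts of each gene list in left and right half-embryos. Replicates differed by more than sampling noise (chi-square per degree of freedom of 6.50 or more). Ratios of members were tested by two-sided exact permutation of libraries, a test added after the data were seen. On 10 simulated data sets per stage for left and right against whole embryos, with no number effect, limma recovered 61.5% of genes changed 2-fold and 10.1% changed 1.5-fold among 16672 genes at stage 10.5, and 52.9% and 5.8% among 15594 at stage 12. Of its calls there, 7.97% and 9.83% were false, above the nominal 5%. Counts were drawn with the same dispersion of 0.03 for every gene. ND5 in whole embryos of stage 10.5 varied more than that (768 ± 319 RPKM, SD, n = 3), so these rates need not hold for the members. Named genes are the 4 members, at most 4 called genes of smallest p per list and comparison, and the 6 genes most like the members, except for a result that is not reported here. No sequence is printed.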

Additional observations from a re-analysis of the deposited data

How the results depend on the processing

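The replicate block moved the count of members called from 0 to 4 in dorsal and ventral half-embryos against whole embryos at both stages and in left and right half-embryos at stage 10.5, and from 2 to 4 in left and right half-embryos at stage 12. It changed no call among half-embryos or between stages. For left and right against whole at stage 10.5 a pseudocount of 5 and a minimum RPKM of 5 each gave 1. At stage 12 that comparison gave 0 with the groups compared alone, with a pseudocount of 0.1 and with limma's voom on recovered reads, an alternative added after the data were seen. It gave 4 with a minimum RPKM of 5 and with quantile normalization, 0 to 1 when single libraries were left out, and 4 with the block and without left library 2, a setting also added after the data were seen. Ventral against whole at stage 12 gave 2 with a minimum RPKM of 5, 1 with upper-quartile scaling, 3 with quantile normalization and 0 to 3 without single libraries (3 without ventral library 2, 1 without whole-embryo library 2). Counts over all genes moved with the setting too. Left and right against whole called between 16 and 3666 genes at stage 10.5 and between 11 and 1323 at stage 12. Ventral against whole at stage 12 called between 213 and 1734 genes. The moves in the count of members are therefore not read as particular to the members. Their cause was not tested. In the other comparisons 0 members were called under every alternative run, except with the block in comparisons with whole embryos. The stage change of ND6 in ventral against whole embryos turned to -0.14 without whole-embryo library 3 of stage 10.5, -0.17 without whole-embryo library 1 of stage 12 and -0.06 without ventral library 3 of stage 12, and reached 0.39 without whole-embryo library 3 of stage 12. Signs of differences near 0 among half-embryos, and of ratios not over ND1, were not followed. Without whole-embryo library 1 or 2, ND5 over ND1 at stage 10.5 had exact permutation p = 0.0769. The count tests edgeR and DESeq2, planned for recovered reads, were not run, because the deposited values are RPKM.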
